A study of Homo sapiens with 12 samples.

Results

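Interferon-stimulated genes were followed through the knockdown of PHF19, an accessory subunit of Polycomb repressive complex PRC2, in a pair of triple-negative breast cancer lines. The genes were a named list of 47 interferon-induced effectors with their sensors and regulators, all of which were found by symbol among the 29972 gene rows of both deposited tables. Type I interferons such as interferon beta, the product of IFNB1, signal through the receptor chains IFNAR1 and IFNAR2 and the kinases JAK1 and TYK2. STAT2 and IRF9 then act as part of the complex ISGF3, which binds interferon-stimulated response elements (ISRE) in promoters. Interferon gamma acts on promoters through GAS elements, and the sensors RIG-I (gene DDX58) and MDA5 (gene IFIH1) detect double-stranded RNA and induce IFNB1 through the adaptor MAVS. Many tumour lines keep part of this programme switched on without added interferon.

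MDA-MB-436 is an established breast cancer line, and BoM-1833 is a line derived from MDA-MB-231 that homes to bone. In both lines the control groups (siNT) received a non-targeting siRNA pool and the treated groups (siPHF19) an equal mixture of 2 siRNAs against PHF19, at 5 nM in all, by lipid transfection, and RNA was taken after 72 h. All 4 groups were therefore transfected, and an untransfected group was not analysed here. Per the labels the siNT pool was bought from Dharmacon and the siRNAs against PHF19 from ThermoFisher, so the siRNA product and the loss of PHF19 cannot be told apart. Each group had 3 libraries, 12 in all. The labels do not say that replicates were separate cultures, so p-values measure the spread between these libraries, which may be technical.

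Libraries held 15.2 to 24.0 M reads in genes in MDA-MB-436 and 13.7 to 21.3 M in BoM-1833. The siNT libraries differed more among themselves (chi-square per degree of freedom 6.18 to 25.5 per pair) than the siPHF19 libraries did (2.32 to 3.56). PHF19 (chr9:120855652-120894896, minus strand, GRCh38) had normalized counts, that is reads divided by a size factor set within each line, of 2942, 3354 and 3763 in MDA-MB-436 siNT and of 340.1, 326 and 315 in siPHF19. In BoM-1833 it had 1711, 1684 and 1669 in siNT and 181, 201 and 173 in siPHF19, so the groups were far apart in both lines. The T cell, B cell and NK cell markers CD3E, MS4A1 and NKG7 and the plasmacytoid dendritic cell markers CLEC4C and LILRA4 were at 0 in every library, and the 6 mesenchymal markers of basal-type breast lines had reads in all 4 groups. These summed to 2370 to 2637 RPM (reads per 1 M reads in genes) in MDA-MB-436 siNT and 2321 to 2421 in siPHF19, which overlapped, and to 6812 to 7074 in BoM-1833 siNT and 6336 to 6399 in siPHF19, which did not. The 7 epithelial markers summed to 314 to 336 RPM in MDA-MB-436 siNT and 415 to 427 in siPHF19, and to 1297 to 1414 and 1814 to 1889 in BoM-1833, and 4 fibroblast markers, of which DCN was at 0 in every library, to 4.02 to 4.96, 6.33 to 7.03, 17.2 to 19.6 and 28.4 to 29.4 in the same order. The part of these markers in the results was not tested. For any gene, a bulk library cannot tell fewer expressing cells from less RNA per cell.

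In MDA-MB-436, 14 of 44 tested members (31.8%) rose after siPHF19 and 0 fell, at an adjusted p under 0.05 in the authors' deposited table (DESeq2 Wald test). Over all 14243 tested genes 10.5% were called higher, 11.5% lower and 22.1% in either direction. The members called were IFITM3, RSAD2, IFI6, IRF9, SAMD9L, GBP1, IFIT2, IFI44L, IFIT3, PARP14, IFIH1, HERC5, IFI27 and DHX58. Log2 fold changes were positive for 39 members and negative for 5, with a median of 0.30 and a range from -0.23 to 1.00, beside a median of 0.00 over all tested genes. At an unadjusted p under 0.05 there were 19 higher and 0 lower members, and edgeR and limma each called 14 higher and 0 lower, 13 of them called in the deposited table, with IFI35 in place of PARP14. All siPHF19 libraries lay above all siNT libraries for 19 members and below them for 1, IFIT5; over all tested genes the shares were 21.1% above and 21.1% below. The number of calls depended on single libraries: without siPHF19 replicate 2 it was 5, without siPHF19 replicate 1 it was 7, without siNT replicate 2 it was 8 and without siNT replicate 1 it was 9, with a median log2 fold change between 0.21 and 0.34 when any library was left out. The share of all genes called in these refits is not given here, so whether the drop was particular to the members was not tested. The calls of IFITM3, RSAD2, IFI6, IRF9 and GBP1 held when each library was left out in turn. Those of IFIT2 and SAMD9L were lost without 1 library, those of IFIT3, IFI44L and PARP14 without any of 4 of the 6 (adjusted p up to 0.270, 0.206 and 0.201 by DESeq2), those of IFIH1, HERC5 and IFI27 without any of 5 (up to 0.240, 0.250 and 0.240), and that of DHX58 without any of the 6 (up to 0.238).

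In BoM-1833, 9 of 43 tested members (20.9%) rose and 1, DDX58, fell in the authors' deposited table, beside 5.21% called higher, 5.72% called lower and 10.9% called in either direction over all 12906 tested genes. The members that rose were IFITM3, IFIT2, IFITM1, OAS3, IFITM2, SAMD9L, BST2, PARP9 and TRIM21. Log2 fold changes were positive for 29 members and negative for 14, with a median of 0.16 and a range from -0.29 to 0.48, beside a median of 0.00 over all tested genes. All siPHF19 libraries lay above all siNT libraries for 20 members and below them for 3 (DDX58, HERC5 and TRIM25), against 15.3% and 15.7% of all tested genes. Calls numbered 5 without siPHF19 replicate 2, 6 without siPHF19 replicate 1 and 6 without siNT replicate 2. As in MDA-MB-436, the share of all genes called in these refits is not given here. The calls of IFITM3, IFIT2, IFITM1 and OAS3 held when each library was left out in turn. That of SAMD9L was lost without 1 of the 6, IFITM2 without 2, DDX58 without 3, BST2 and PARP9 without 4 and TRIM21 without 5, each in turn, with adjusted p up to 0.0984, 0.0754, 0.157, 0.275, 0.239 and 0.177 by DESeq2.

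**Figure D1:**
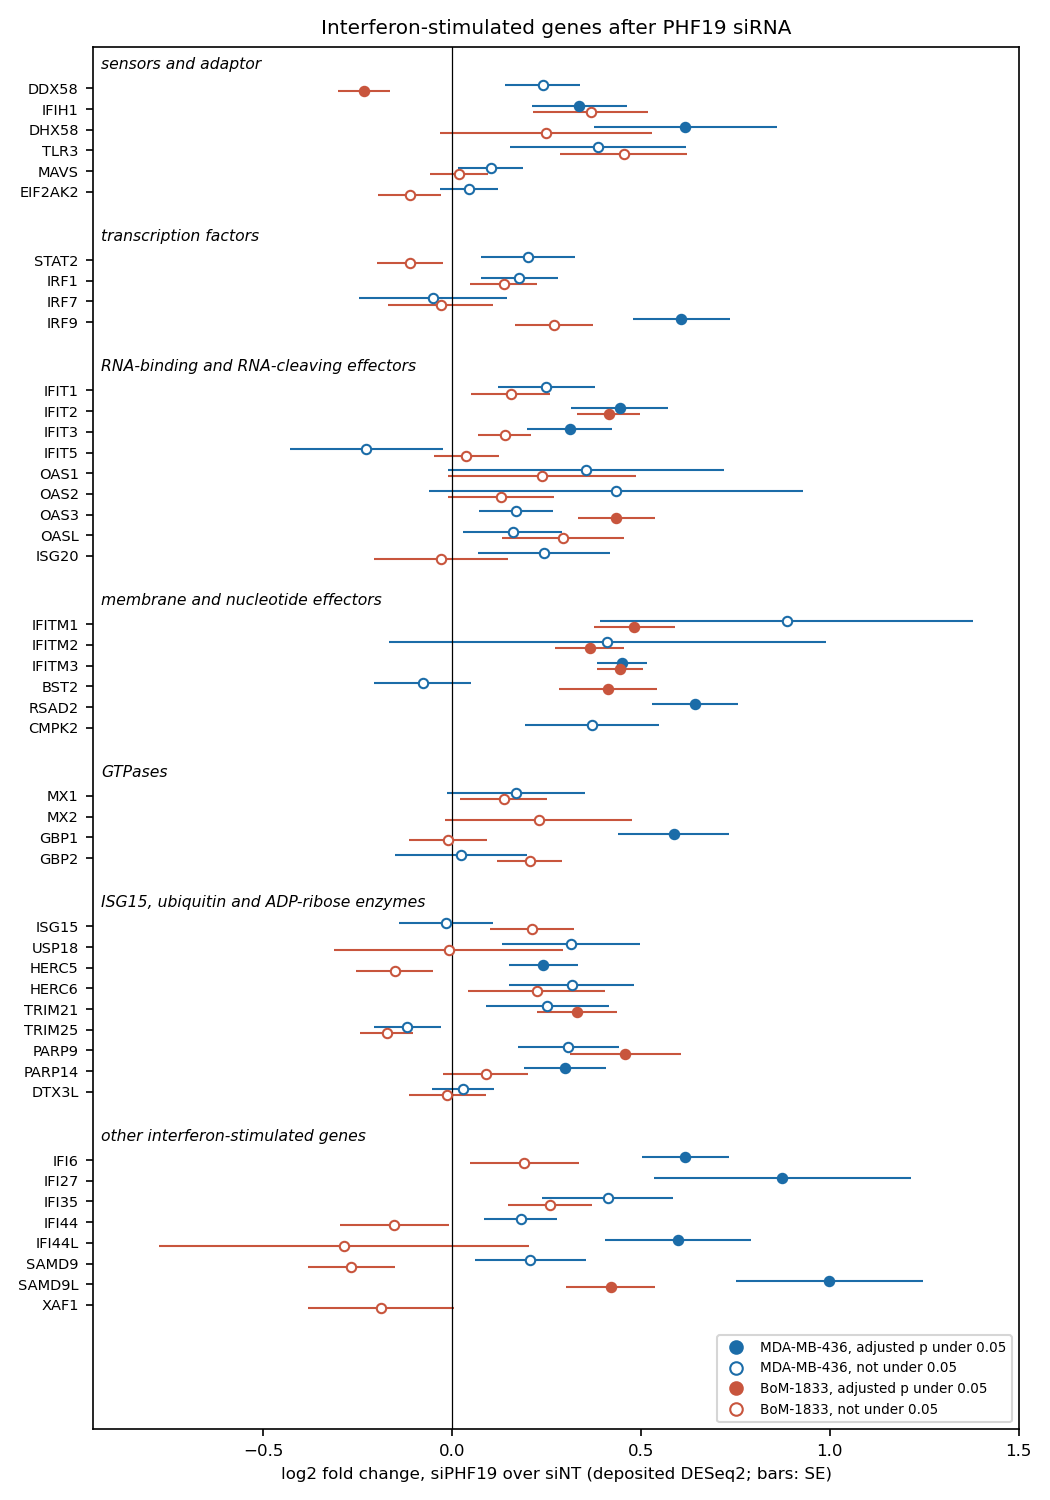
Log2 fold change of each tested member after siPHF19 (x axis) with its standard error, grouped by role, in MDA-MB-436 (blue) and BoM-1833 (red), from the authors' deposited tables; filled points have an adjusted p under 0.05. Of 44 points in MDA-MB-436 39 lie above 0, and of 43 in BoM-1833 29 do.

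Tests in both lines were available for 41 members, and 3 of them were called in each line, all higher: IFIT2, IFITM3 and SAMD9L. Of the 12290 genes with a test in each line, 5.97% passed in MDA-MB-436 and BoM-1833 alike, and 2.55% were higher both times. The 3 members were 21.4% of the members called in MDA-MB-436 and 30% of those called in BoM-1833; over all genes the shares were 23.4% and 52.0%. Members called in either line numbered 21, so 26 of the 47 were called in neither. The sign was positive in both lines for 25 members, negative in both for 2 and opposite for 14; of the 14, 11 were positive in MDA-MB-436. Pearson's r of the log2 fold changes was 0.35 across the 41 members and 0.32 across all 12290 genes tested in both lines; genes within a library share its depth and handling and are not independent replicates. The lines share no libraries.

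**Figure D2:**
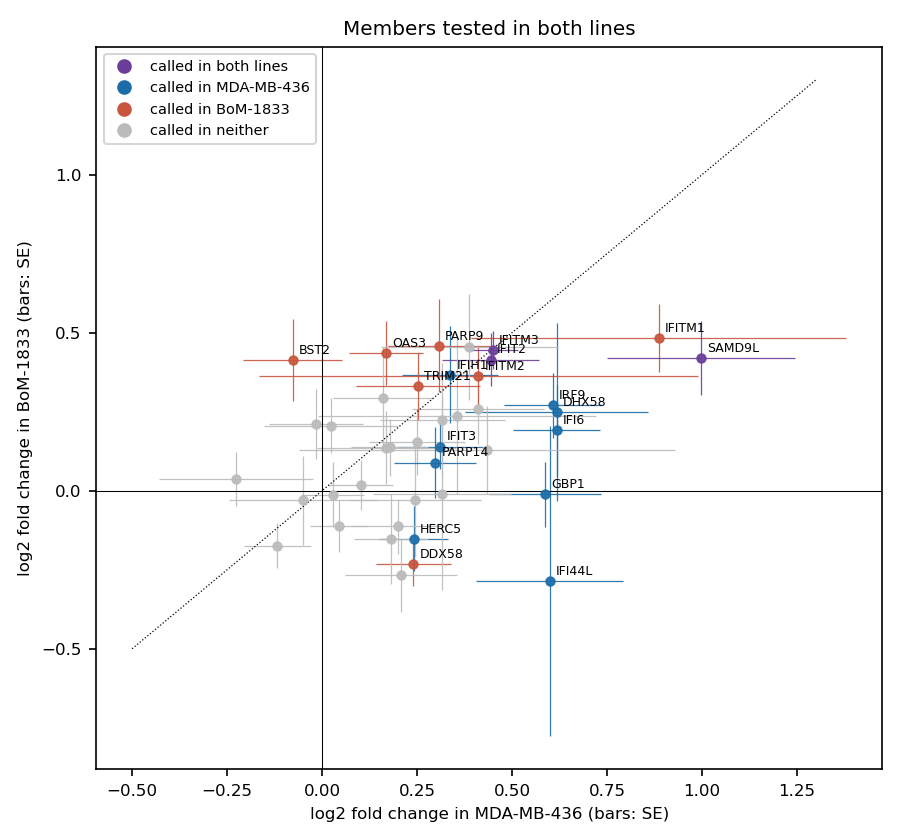
Log2 fold change in MDA-MB-436 (x axis) against BoM-1833 (y axis) for the 41 members tested in both lines, with standard errors; colour marks where a member was called, and the dotted line marks equal change. IFIT2 and IFITM3 sit near the dotted line, GBP1 sits at 0.59 and -0.01, and DDX58 is positive on the x axis and negative on the y axis.

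The promoters of the members were searched for the ISRE core, written GAAANNGAAA on a strand and TTTCNNTTTC on the other, since a shared element is the textbook link between these genes. RefSeq promoter windows (GRCh38.p14, 250 bases before to 50 after a start) were matched for 38 of the 47 members, DDX58 under its current symbol RIGI. The members without a matched window were DHX58, IRF7, IFIT2, OAS2, OASL, IFITM2, MX2, GBP2 and USP18. The ISRE letters were present in at least 1 window of 25 of the 38 members (65.8%), or 29 of 48 member windows (60.4%), against 1255 of 35116 windows over all genes (3.57%). GAS letters TTCNNNGAA were present in 11 of 38 members (28.9%), or 12 of 48 windows (25%), against 7.66% of all windows. Windows can overlap, so the same site can count for several of them, as it does for IFI27, for IFI44, and for PARP9 with DTX3L. A match describes letters in a window and no more.

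The stretches below lie upstream of an annotated start and belong to members called in both lines (IFITM3), in MDA-MB-436 (IFIT3, RSAD2, IFI6 and GBP1), in BoM-1833 (IFITM1, BST2 and PARP9) or in neither (ISG15); they are shown so that the cores can be compared, 5′ to 3′ on the gene's strand, with the matches in capitals. Those of IFITM3, GBP1, IFITM1, BST2 and PARP9 are kept to at most 30 bases because annotated untranslated regions of longer or neighbouring transcripts run through them.
IFITM3, chr11:320885-320913, minus strand: gGAAAAGGAAActgttgaGAAACCGAAAc
IFIT3, chr10:89327826-89327899, plus strand: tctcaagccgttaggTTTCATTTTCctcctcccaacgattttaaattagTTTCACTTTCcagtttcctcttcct
RSAD2, chr2:6877617-6877656, plus strand: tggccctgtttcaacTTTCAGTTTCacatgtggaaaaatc
IFI6, chr1:27672261-27672363, minus strand: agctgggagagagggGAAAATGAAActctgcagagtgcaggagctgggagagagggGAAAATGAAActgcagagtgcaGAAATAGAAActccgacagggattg
GBP1, chr1:89065316-89065345, minus strand: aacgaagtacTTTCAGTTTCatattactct
IFITM1, chr11:313990-314019, plus strand: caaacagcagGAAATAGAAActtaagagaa
BST2, chr19:17405738-17405767, minus strand: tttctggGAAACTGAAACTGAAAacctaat
PARP9, chr3:122564322-122564351, minus strand: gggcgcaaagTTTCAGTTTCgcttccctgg
ISG15, chr1:1013369-1013414, plus strand: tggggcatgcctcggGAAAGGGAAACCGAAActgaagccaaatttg
RSAD2, GBP1 and PARP9 carry the same 10 letters at the match. The match of PARP9 is the same site as that of DTX3L, which lies on the other strand and was called in neither line. IFI6 carries 3 matches, a pair of them within a repeated stretch, and the matches of BST2 and of ISG15 overlap each other. IFITM3, called in both lines, and ISG15, called in neither, both carry a pair of matches. The stretches leave out a further match of IFITM1, which crosses its annotated start, and the matches of IFIT3 at its other start.

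Among members whose windows hold the ISRE letters, 10 of 25 tested were called higher in MDA-MB-436 (median log2 fold change 0.25) and 6 of 23 in BoM-1833 (median 0.14), in the authors' deposited tables. Over all tested genes, 10.5% were called higher and 11.5% lower in MDA-MB-436, and 5.21% higher and 5.72% lower in BoM-1833. Among the members whose windows lack them, 2 of 11 tested were called higher in MDA-MB-436 (IRF9 and SAMD9L, median 0.32), and in BoM-1833 1 was higher (SAMD9L) and 1 lower (DDX58) of 11 (median 0.14). Calls and medians thus did not point the same way. The share of members called higher was larger with the letters than without them in both lines. The median of the members without the letters was the higher of the pair in MDA-MB-436 and about equal in BoM-1833. Neither difference was tested.

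**Figure D3:**
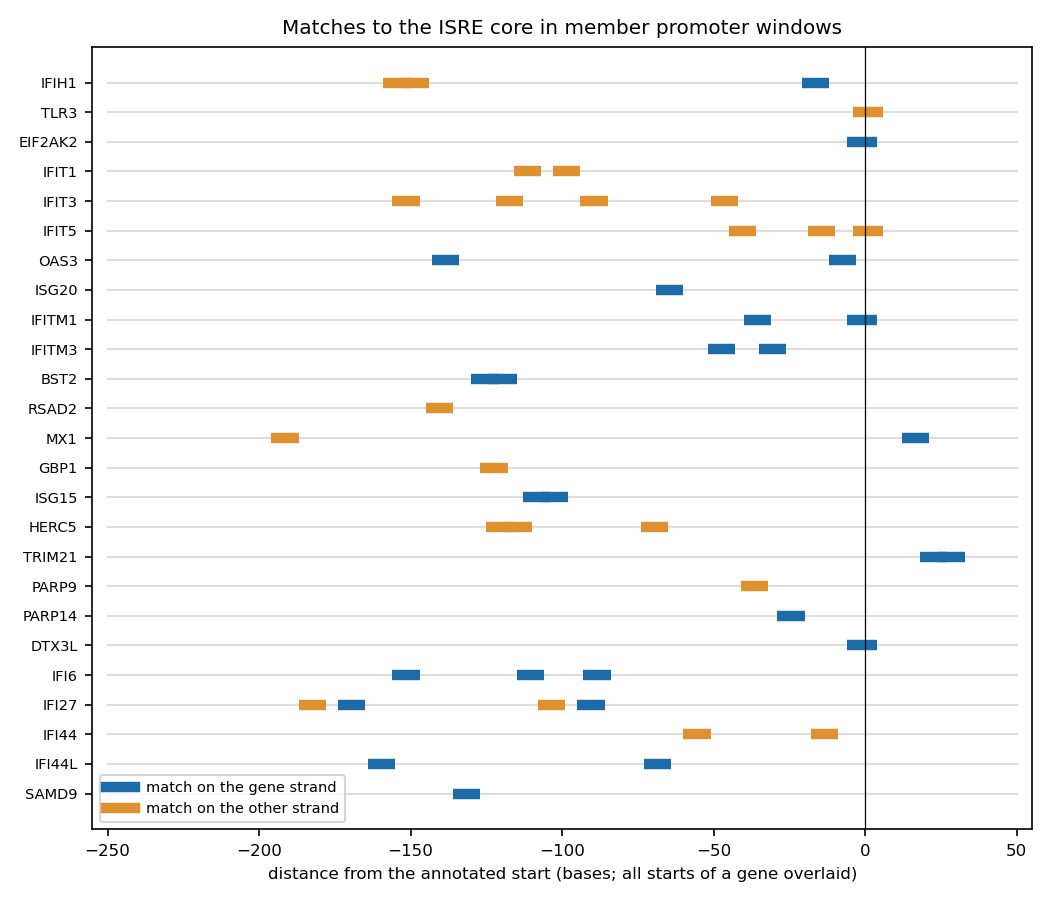
Positions of matches to the ISRE core in the promoter windows of the 25 members that hold one (y axis), as the distance in bases from the annotated start (x axis); blue marks a match on the gene's strand and orange one on the other strand. Most matches lie upstream of the start. TRIM21 has its matches downstream of it, and MX1 also has a match there. Matches of TLR3, EIF2AK2, IFIT5, IFITM1 and DTX3L cross the start.

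IFNB1, the ligand among the members, was barely detected. In MDA-MB-436 it had 3 reads over the siNT libraries, all in replicate 1, and 7 over the siPHF19 libraries, and it was not tested. In BoM-1833 it had 0 reads in all 6 libraries, which allows a level of up to 0.0296 RPM. Of 12 other interferon genes on a list of pathway genes, 10 had no read in MDA-MB-436, as had all 12 in BoM-1833. IFNL1, a type III interferon, had 29 reads in MDA-MB-436 siNT and 37 in siPHF19, and its adjusted p in the authors' deposited table was 0.796.

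Of the 6 sensors and their adaptor, IFIH1 and DHX58 rose in MDA-MB-436 and DDX58 fell in BoM-1833. For this and the role groups that follow, the shares over all tested genes were 10.5% higher and 11.5% lower in MDA-MB-436. In BoM-1833 they were 5.21% higher and 5.72% lower. DDX58 (chr9:32455705-32526324, minus strand) encodes RIG-I, which recognises double-stranded RNA with a 5′ triphosphate. Its normalized counts in MDA-MB-436 were 1083, 1077 and 1049 in siNT and 1206, 1430 and 1149 in siPHF19. In BoM-1833 they were 2265, 2258 and 2413 in siNT and 2021, 2005 and 1872 in siPHF19. The groups did not overlap in either line, and they were ordered in opposite ways. The authors' deposited table gave a log2 fold change of 0.24 in MDA-MB-436 (SE 0.10, adjusted p = 0.0645) and of -0.23 in BoM-1833 (SE 0.07, adjusted p = 0.00909). Without MDA-MB-436 siPHF19 replicate 2, the highest library, the value in that line was 0.14, and the call in BoM-1833 was lost without siNT replicate 3, siPHF19 replicate 2 or siPHF19 replicate 3.

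IFIH1, which encodes the long double-stranded RNA sensor MDA5, had a log2 value of 0.34 in MDA-MB-436 (SE 0.13, adjusted p = 0.0377) and 0.37 in BoM-1833 (SE 0.15, adjusted p = 0.112) per the authors' deposited tables; in BoM-1833 limma called it higher (adjusted p = 0.0479) and edgeR did not. DHX58, which encodes LGP2, a regulator of both sensors, had a log2 value of 0.62 in MDA-MB-436 (SE 0.24, adjusted p = 0.0486) per the same source. TLR3, the endosomal double-stranded RNA receptor, had positive values that did not pass in either deposited table (0.39 and 0.45, adjusted p = 0.242 and 0.0579), and edgeR and limma called it higher in BoM-1833. MAVS and EIF2AK2, which encodes the kinase PKR, lay between -0.11 and 0.10 in both lines and did not pass.

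IRF9 was the only transcription factor of the 4 (STAT2, IRF1, IRF7 and IRF9) that the authors' deposited tables called in either line. IRF9 (chr14:24161053-24166565, plus strand) is the DNA-binding subunit of ISGF3. Its normalized counts in MDA-MB-436 were 342, 401 and 325 in siNT and 563, 588 and 481 in siPHF19, without overlap. In BoM-1833 they were 464, 458 and 478 in siNT and 597, 572 and 517 in siPHF19, also without overlap. The log2 fold change in the authors' deposited table was 0.61 in MDA-MB-436 (SE 0.13, adjusted p = 3.45e-05) and 0.27 in BoM-1833 (SE 0.10, adjusted p = 0.0742), where edgeR and limma called it higher. IRF9 shares 43.6% of its 50-base words with an annotated readthrough gene, AL136295.5, so reads may be split between them. The remaining 3 factors lay between -0.11 and 0.20 in the authors' deposited tables; in BoM-1833 0 of the 4 passed and 1 had an unadjusted p under 0.05.

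Among the 9 RNA-binding and RNA-cleaving effectors, IFIT2 and IFIT3 rose in MDA-MB-436 and IFIT2 and OAS3 in BoM-1833. IFIT proteins bind viral RNA and hold back its translation. IFIT2 (chr10:89283694-89309276, plus strand) had normalized counts in MDA-MB-436 of 496, 539 and 471 in siNT and 690, 784 and 575 in siPHF19. In BoM-1833 the counts were 803, 853 and 768 in siNT and 1060, 1063 and 1109 in siPHF19. The groups were apart in both lines, and siPHF19 replicates were closer together in BoM-1833. The authors' deposited table gave 0.44 in MDA-MB-436 (SE 0.13, adjusted p = 0.00417) and 0.41 in BoM-1833 (SE 0.08, adjusted p = 2.28e-05). Without MDA-MB-436 siPHF19 replicate 2 the value in that line was 0.33 with an adjusted p of 0.120 by DESeq2.

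IFIT3, a partner of IFIT1, had a log2 value of 0.31 in MDA-MB-436 (SE 0.11, adjusted p = 0.0299) and 0.14 in BoM-1833 (SE 0.07, adjusted p = 0.230) per the authors' deposited tables. IFIT1, IFIT2 and IFIT3 overlap the gene LIPA on the other strand, and the use of strand in counting is not given in the sources used here. IFIT1 had 0.25 and 0.16, and IFIT5 -0.23 and 0.04, in the authors' deposited tables, and neither passed.

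OAS proteins make 2′-5′ oligoadenylate, which activates RNase L. OAS3 (chr12:112938352-112973249, plus strand) had normalized counts in BoM-1833 of 465, 508 and 560 in siNT and 700.2, 664 and 705 in siPHF19. In MDA-MB-436 it had 881, 989 and 1109 in siNT and 1099, 1146 and 1099 in siPHF19. The groups were apart in BoM-1833 and overlapped in MDA-MB-436. The authors' deposited table gave 0.43 in BoM-1833 (SE 0.10, adjusted p = 0.000452) and 0.17 in MDA-MB-436 (SE 0.10, adjusted p = 0.228), where the gene was called when siNT replicate 3 was left out. OAS1, OAS2, OASL and ISG20, an exonuclease, passed in neither line and lay between -0.03 and 0.43.

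Of the membrane and nucleotide effectors, all 4 tested in BoM-1833 (IFITM1, IFITM2, IFITM3 and BST2) rose, and in MDA-MB-436 IFITM3 and RSAD2 rose of 6 tested. IFITM proteins block the fusion of viral and cellular membranes. IFITM3 (chr11:319669-327537, minus strand) had normalized counts in MDA-MB-436 of 3379, 3706 and 3616 in siNT and 4831, 4972 and 4813 in siPHF19. In BoM-1833 they were 4223, 3895 and 3854 in siNT and 5381, 5590 and 5341 in siPHF19. In both lines the lowest siPHF19 library was well above the highest siNT library. The authors' deposited table gave 0.45 in MDA-MB-436 (SE 0.07, adjusted p = 3.47e-10) and 0.45 in BoM-1833 (SE 0.06, adjusted p = 3.18e-11), and the call held in each of 12 alternative fits per line.

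IFITM1 (chr11:313506-315272, plus strand) had normalized counts in BoM-1833 of 358, 355 and 362 in siNT and 514, 507 and 479 in siPHF19. In MDA-MB-436 it was low, at 12, 22.5 and 7.34 in siNT and 26.2, 33.1 and 20.1 in siPHF19. The groups were apart in BoM-1833 and overlapped in MDA-MB-436. The log2 fold change in the authors' deposited table was 0.48 in BoM-1833 (SE 0.11, adjusted p = 0.000194) and 0.89 in MDA-MB-436 (SE 0.49, adjusted p = 0.200). IFITM2 (chr11:307631-315272, plus strand) had 1127, 916 and 1102 in BoM-1833 siNT and 1289, 1454 and 1306 in siPHF19, again apart. In MDA-MB-436 it had 5.46, 11.6 and 12.2 in siNT and 12, 12.4 and 14.8 in siPHF19. The authors' deposited table gave IFITM2 0.36 in BoM-1833 (SE 0.09, adjusted p = 0.00172), and the call was lost there without siNT replicate 2 or siPHF19 replicate 2. IFITM1, IFITM2 and IFITM3 share 32.0%, 34.1% and 17.4% of their 50-base words with other annotated genes, IFITM1 and IFITM2 with each other and IFITM3 with IFITM2, so how reads were split between them is uncertain.

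BST2, or tetherin, which holds budding virus at the cell surface, had a log2 value of 0.41 in BoM-1833 (SE 0.13, adjusted p = 0.0177) and -0.08 in MDA-MB-436 (SE 0.13, adjusted p = 0.726) per the authors' deposited tables. RSAD2 (chr2:6865806-6898239, plus strand) encodes viperin, which makes a chain-terminating nucleotide. Its normalized counts in MDA-MB-436 were 419, 456 and 428 in siNT and 633, 766 and 634 in siPHF19, without overlap, and the authors' deposited table gave 0.64 (SE 0.11, adjusted p = 5.06e-07). In BoM-1833 its normalized counts were 1.59, 0 and 0 in siNT and 2.98, 0 and 0 in siPHF19, from 2 and 3 reads, and it was not tested. CMPK2, the nucleotide kinase that lies head to head with RSAD2 and overlaps it, had 0.37 in MDA-MB-436 (SE 0.18, adjusted p = 0.125) per the same source and 1 read in all of BoM-1833.

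**Figure D4:**
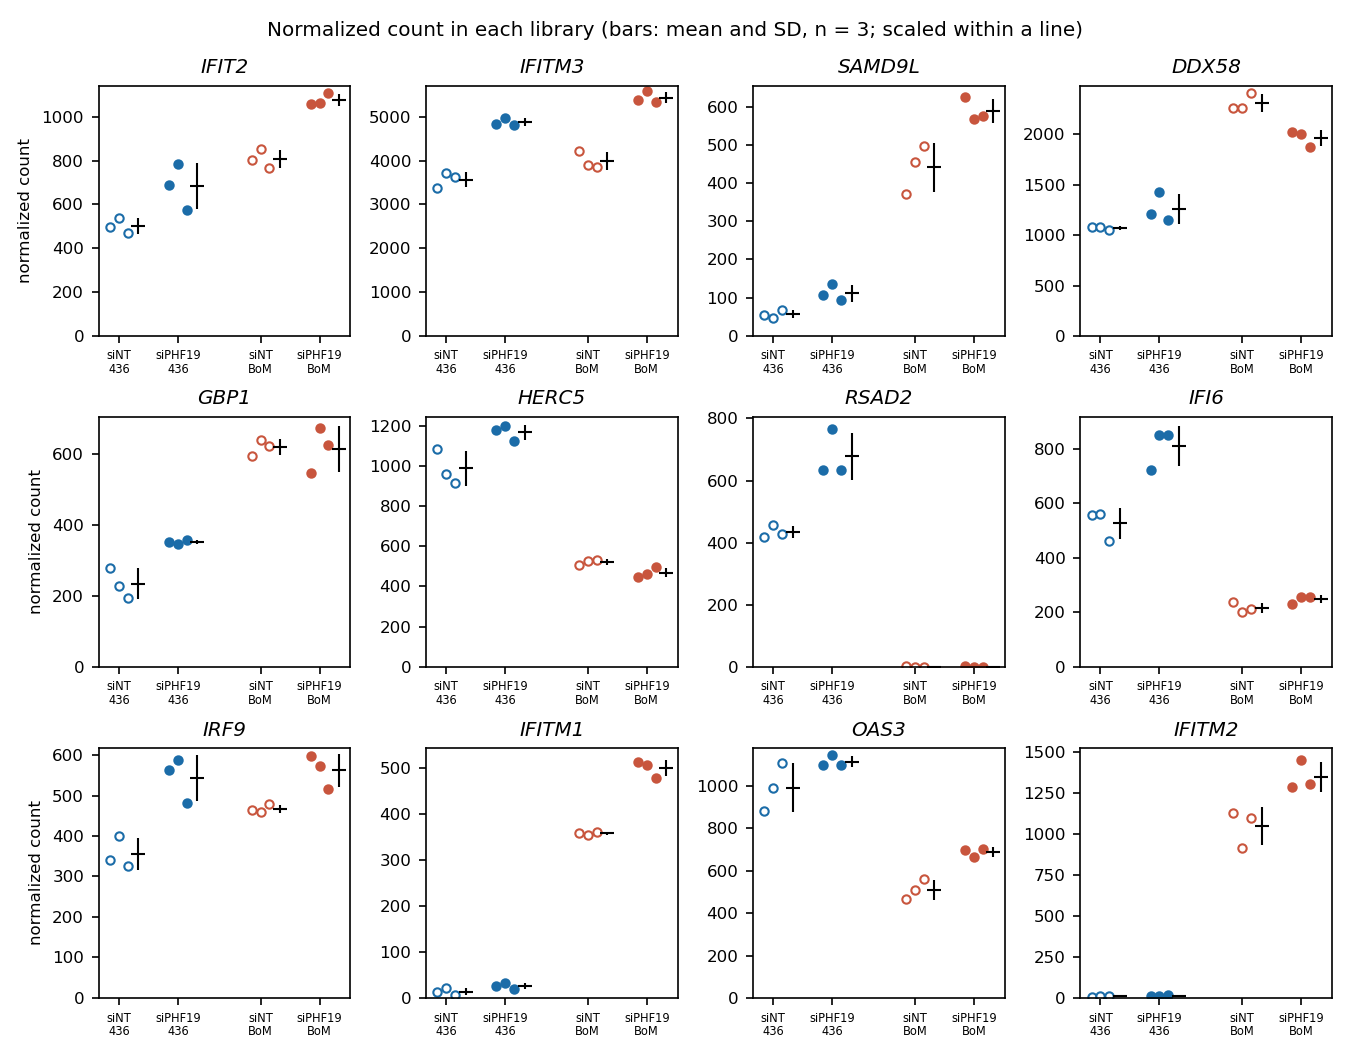
Normalized count in each library (y axis, starting at 0, scaled separately within each line) for 12 members, with siNT open and siPHF19 filled, MDA-MB-436 blue and BoM-1833 red, and the mean and SD of 3 libraries as black bars. IFIT2, IFITM3 and SAMD9L are higher after siPHF19 in both lines, and RSAD2 is near 0 in BoM-1833.

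Of the GTPases, GBP1 rose in MDA-MB-436. In BoM-1833 0 of 4 passed, beside 10.9% of all tested genes, with 1 at an unadjusted p under 0.05 and 0 called by edgeR or limma. GBP1 (chr1:89052319-89065360, minus strand) is a guanylate-binding protein induced strongly by interferon gamma. Its normalized counts in MDA-MB-436 were 281, 229 and 193 in siNT and 353, 347 and 357 in siPHF19. In BoM-1833 they were 596, 642 and 623 in siNT and 546, 675 and 627 in siPHF19. The groups were apart in MDA-MB-436 and overlapped in BoM-1833. The authors' deposited table gave 0.59 (SE 0.15, adjusted p = 0.000757) and -0.01 (SE 0.10, adjusted p = 0.975). MX1, GBP2 and MX2, where tested, lay between 0.02 and 0.23 and did not pass.

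ISG15 is a ubiquitin-like protein, HERC5 the ligase that attaches it and USP18 the protease that removes it. HERC5 (chr4:88457117-88506163, plus strand) had normalized counts in MDA-MB-436 of 1083, 961 and 916 in siNT and 1176, 1199 and 1124 in siPHF19. In BoM-1833 it had 506, 527 and 529 in siNT and 448, 464 and 495 in siPHF19. As for DDX58, the groups were apart in both lines and ordered in opposite ways. The authors' deposited table gave 0.24 in MDA-MB-436 (SE 0.09, adjusted p = 0.0383) and -0.15 in BoM-1833 (SE 0.10, adjusted p = 0.430). ISG15 itself had -0.02 and 0.21, and USP18 0.31 and -0.01, in the authors' deposited tables, and neither passed.

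PARP14, a mono-ADP-ribosyltransferase, had a log2 value of 0.30 in MDA-MB-436 (SE 0.11, adjusted p = 0.0314) per the authors' deposited table, and edgeR and limma did not call it. PARP9, which acts with the ubiquitin ligase DTX3L, had a log2 value of 0.46 in BoM-1833 (SE 0.15, adjusted p = 0.0210) and 0.31 in MDA-MB-436 (SE 0.13, adjusted p = 0.0816) per that source. DTX3L, which overlaps PARP9 on the other strand, lay at 0.03 and -0.01. TRIM21, an antibody receptor and ubiquitin ligase, had a log2 value of 0.33 in BoM-1833 (SE 0.11, adjusted p = 0.0226) per the authors' deposited table, and TRIM25, a ubiquitin ligase that acts on RIG-I, had -0.12 and -0.17 and passed in neither line.

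In the remaining group IFI6, SAMD9L, IFI44L and IFI27 rose in MDA-MB-436, 4 of 7 tested, and SAMD9L rose in BoM-1833, 1 of 7. SAMD9L (chr7:93130055-93148369, minus strand) restrains cell growth and viral translation. Its normalized counts in MDA-MB-436 were 54.6, 47.3 and 68.5 in siNT and 107, 136 and 92.9 in siPHF19. In BoM-1833 they were 371, 455 and 498 in siNT and 625, 567 and 574 in siPHF19. The groups did not overlap in either line. With 1.00 (SE 0.25, adjusted p = 0.000640) per the authors' deposited table SAMD9L had the highest log2 fold change of the tested members in MDA-MB-436; its value in BoM-1833 was 0.42 (SE 0.12, adjusted p = 0.00580). The call was lost in MDA-MB-436 without siPHF19 replicate 2 (adjusted p = 0.0545 by DESeq2) and in BoM-1833 without siPHF19 replicate 1 (adjusted p = 0.0984 by DESeq2). SAMD9, its neighbour and paralog, had 0.21 and -0.27 and passed in neither.

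IFI6 (chr1:27666061-27672218, minus strand) encodes a small membrane protein that counters flavivirus replication. Its normalized counts in MDA-MB-436 were 556, 563 and 461 in siNT and 724, 851 and 851 in siPHF19, without overlap. In BoM-1833 they were 237, 200.4 and 214 in siNT and 231, 255 and 258 in siPHF19, which overlapped. The authors' deposited table gave 0.62 in MDA-MB-436 (SE 0.11, adjusted p = 1.80e-06) and 0.19 in BoM-1833 (SE 0.14, adjusted p = 0.502). IFI35 had 0.41 in MDA-MB-436 (SE 0.17, adjusted p = 0.0718) and 0.26 in BoM-1833 (SE 0.11, adjusted p = 0.130) per the authors' deposited tables. IFI44L had 0.60 (SE 0.19, adjusted p = 0.0127) and IFI27 0.87 in MDA-MB-436 (SE 0.34, adjusted p = 0.0463) per those tables. XAF1, a pro-apoptotic factor, had 3 reads in MDA-MB-436 siNT and 10 in siPHF19, MX2 had 11 and 7, and neither was tested there.

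Whether the lines responded differently was tested gene by gene with a z test of the difference between the log2 fold changes. Of the 41 members 2 passed, DDX58 and GBP1, beside 4.89% of all 12290 genes. For DDX58 the change in MDA-MB-436 was 0.47 higher than in BoM-1833 (95% interval 0.24 to 0.71, adjusted p = 0.00390 over all genes tested), from the authors' deposited values. For GBP1 it was 0.60 higher (95% interval 0.25 to 0.95, adjusted p = 0.0236), from the same values. HERC5 was the third by z, at 0.39 with an adjusted p of 0.0705, and passed in DESeq2 and edgeR fits with an interaction of line and siRNA (adjusted p = 0.0167 and 0.0358). The difference for DDX58 lost its call without MDA-MB-436 siPHF19 replicate 2 (adjusted p = 0.102), and that for GBP1 without any of 7 libraries, each left out in turn. By the z test no difference between lines was shown for the remaining 39 members, IFITM3, IFIT2 and SAMD9L among them.

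Members also differed in their control levels between the lines, given as RPM because the tables were normalized separately, with no test. Over the 3 siNT libraries of each line, 27 members were higher in every BoM-1833 library than in any MDA-MB-436 library, 17 the other way round, and 3 overlapped (IFNB1, EIF2AK2 and ISG20). Among the 20278 genes with a read in any siNT library, 31.5% were higher in every BoM-1833 library and 35.0% in every MDA-MB-436 library. For the genes tested in both lines these were 25 and 14 of 41 members beside 40.9% and 39.4% of all 12290 genes, so control levels that did not overlap were common among genes in general. IFITM2 had 0.523 RPM in MDA-MB-436 siNT and 62.6 in BoM-1833 siNT, a ratio of 120, and IFITM1 had 0.743 and 21.4, a ratio of 28.8. Both are thus close to silent in MDA-MB-436, while their neighbour IFITM3 was abundant in both lines. OAS2 had a ratio of 19.4, MX2 of 18.2, IFIT5 of 9.14 and SAMD9L of 8.71 in favour of BoM-1833. XAF1 had 3 reads in MDA-MB-436 siNT and 420 in BoM-1833 siNT.

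The opposite pattern was that of RSAD2, with 1322 siNT reads in MDA-MB-436 against 2 in BoM-1833, and of its neighbour CMPK2, with 481 and 1. OASL, IFI44, IFI44L and USP18 were 5.43, 5.09, 4.28 and 4.01 times higher in MDA-MB-436. Among members with over 3 reads in both lines, 8 were over 4 times higher in BoM-1833 and 4 in MDA-MB-436. Scaled also by exon length (RPKM), IFITM3 was the highest member in both lines, at 157 RPKM in MDA-MB-436 siNT and 197 RPKM in BoM-1833 siNT. In MDA-MB-436 the next were BST2 at 44.6, IFI44 at 43.2 and ISG15 at 38.2 on that scale.

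**Figure D5:**
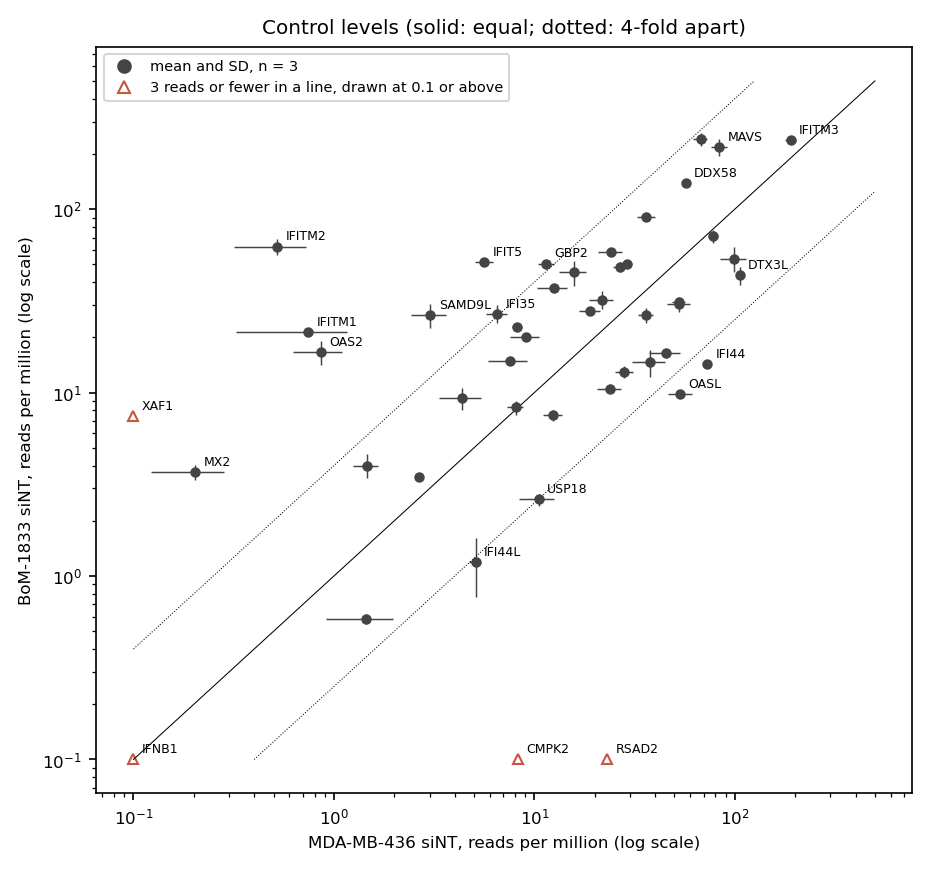
Control levels in RPM in the siNT libraries of MDA-MB-436 (x axis) and BoM-1833 (y axis), both on log scales, as mean and SD of 3 libraries; triangles mark members with 3 reads or fewer in a line. RSAD2 and CMPK2 lie along the bottom, and IFITM1, IFITM2, OAS2, MX2 and XAF1 lie far above the line of equal level.

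Of the genes upstream of the members, 2 of 9 receptor and kinase genes were called in MDA-MB-436 per the authors' deposited table, beside 22.1% of all tested genes there: JAK1 rose and IFNAR1 fell. JAK1 had normalized counts there of 4406, 4887 and 5688 in siNT and 6920, 6301 and 6320 in siPHF19, without overlap, and its log2 value was 0.38 (SE 0.10, adjusted p = 0.000688) per the authors' deposited table. IFNAR1 had -0.26 (SE 0.07, adjusted p = 0.00273) per the same table. In BoM-1833 0 of the 9 passed in the authors' deposited table, with 2 at an unadjusted p under 0.05, beside 10.9% of all tested genes called, and edgeR and limma each called 1, IL10RB, higher.

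Of 12 further transcription factors and feedback genes, 3 rose and 2 fell in MDA-MB-436, and 1 of 9 tested rose in BoM-1833. For these and the lists that follow, the shares over all tested genes were 10.5% higher and 11.5% lower in MDA-MB-436 and 5.21% higher and 5.72% lower in BoM-1833. STAT3, which mediates cytokine signals, rose in both lines (0.33 with an SE of 0.07 and adjusted p = 5.68e-05 in MDA-MB-436; 0.31 with an SE of 0.06 and adjusted p = 3.91e-06 in BoM-1833) per the authors' deposited tables. IRF3, the factor that sensors activate to induce IFNB1, fell in MDA-MB-436 by 0.39 on the log2 scale (SE 0.10, adjusted p = 0.000905) per that source. Of the nucleic acid sensing genes, 3 of 16 tested rose and 3 fell in MDA-MB-436, and 1 of 18 rose and 2 fell in BoM-1833, where the share that rose was near that of all tested genes. IFI16, a DNA sensor, fell in both lines (-0.34 and -0.21, adjusted p = 0.000851 and 0.0141), and SAMHD1, which degrades nucleotides, rose in both (0.29 and 0.33, adjusted p = 0.0172 and 3.78e-05), in the authors' deposited tables.

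Of 49 further interferon-stimulated genes listed beside the members, 10 of 44 tested rose and 2 fell in MDA-MB-436 and 2 of 44 rose and 1 fell in BoM-1833, where 10.9% of all tested genes were called in either direction and the list's share was lower. Their median log2 fold change was 0.17 in MDA-MB-436 against 0.04 in BoM-1833, per the authors' deposited tables. LAP3, a leucine aminopeptidase, fell in both lines (-0.86 and -0.75, adjusted p = 7.52e-27 and 6.23e-19), and IFI30, a lysosomal thiol reductase, rose in both (0.56 and 0.76, adjusted p = 3.35e-09 and 1.63e-09), in that source.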

How the data were processed

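RNA of 2 cell lines (12 libraries) was sequenced after siRNA transfection, and groups came from the sample titles. The submitters' processing notes name STAR, RSEM 1.3.1, DESeq2 1.46.0 and hg38, without their order; which gene models were used and whether counting used strand is not given in the sources used here. Per the file headers the authors deposited 1 DESeq2 table per line. The deposited library values are a signal, gene counts divided by a size factor. The deposited log2 fold changes are siPHF19 over siNT, the Wald statistic is a score, and p-values and adjusted p-values are the authors' own. The number of columns that belong to no sample was 0.

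Every value came out as a whole read (100% at a tolerance of 0.01), so reads were recovered from the deposited signal, and DESeq2 1.42.0 on them gave the authors' number of calls exactly. The deposited Wald test (Benjamini-Hochberg, adjusted p under 0.05) was kept as the main test. Alternatives were edgeR 4.0.16 on the recovered reads, limma 3.58.1 on log2(value + 1), other filters, a replicate block and leaving out each library. The z test between lines was adjusted over 12290 genes; scripts were tested on simulated data. Lengths and positions came from GENCODE v29 (GRCh38), promoters from RefSeq (GRCh38.p14). Limits for a count of 0 used 3 counts and cover counting error only.

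The members, the role groups and the pathway lists were chosen with earlier results of these data known. Library values are given for PHF19, members called in both lines, the 3 members with the largest z between lines and the 3 largest Wald statistics among members called in 1 line; others called are given by fold change, SE and adjusted p. 1 gene of the pathway lists is not reported here and was left out of their counts.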

Additional observations from a re-analysis of the deposited data

Results flagged for a closer look

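Differences between the lines were called for 2 of 41 members, a share close to the 4.89% of all genes tested. The log2 fold change of DDX58, from the authors' deposited tables, was 0.47 higher in MDA-MB-436 than in BoM-1833 by the z test (adjusted p = 0.00390), with 3 of 3 siPHF19 libraries above siNT in MDA-MB-436 and 3 of 3 below it in BoM-1833. The call was lost without MDA-MB-436 siPHF19 replicate 2 (adjusted p = 0.102) and with the replicate block (adjusted p = 0.0999). GBP1 differed by 0.60 in the same test (adjusted p = 0.0236), with the siPHF19 libraries above siNT in MDA-MB-436 and overlapping it in BoM-1833. That call was lost without any of 7 libraries, each left out in turn (adjusted p up to 0.134), and with the replicate block (adjusted p = 0.210). JAK1, from the list of pathway genes, differed by 0.50 (adjusted p = 0.00215). JAK1 had a log2 fold change of 0.38 in MDA-MB-436 but -0.12 in BoM-1833 (adjusted p = 0.399), both from the authors' deposited tables, and its difference between lines passed in each of 16 alternative fits.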

How the results depend on the processing

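Members called in MDA-MB-436 numbered 14 in the deposited table, 14 by edgeR, by limma and when genes under a mean normalized count of 10 were dropped, and 10 without independent filtering. Leaving out each library in turn gave 5 to 12. In BoM-1833 they numbered 10 in the deposited table, 12 by edgeR, 13 by limma, 10 under either filter, and 5 to 12 with a library left out. Members that differed between lines numbered 2, with 3 in DESeq2 and edgeR interaction fits and 0 to 3 with a library left out. With a replicate block, MDA-MB-436 had 7 calls and BoM-1833 had 5, and 0 members differed between lines. The share of all genes called with a library left out or with the block is not given here. The block was not adopted, because same-numbered siNT and siPHF19 libraries did not deviate together: their correlations were -0.23, 0.04 and -0.27 in MDA-MB-436 and -0.31, -0.12 and -0.20 in BoM-1833, so the libraries share only a number. The median log2 fold change of the members stayed positive in every fit, at 0.21 to 0.34 (MDA-MB-436) and 0.14 to 0.18 (BoM-1833).

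Calls that held in each of 12 alternative fits were IFITM3, RSAD2, IFI6, IRF9 and GBP1 in MDA-MB-436 and IFITM3, IFIT2, IFITM1 and OAS3 in BoM-1833. Depth limits IFITM1 and IFITM2 in MDA-MB-436 (46 and 30 siNT reads), where only large changes could have been called. IFI27 in BoM-1833 (33 siNT reads) was not tested in the authors' deposited table.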
